A study of Mus musculus with 12 samples.

Results

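The effect of the Tbx4 knockout that is common to 2 ages of mouse lung was read as the mean of the 2 genotype contrasts, CKO against Control at P14 and at P36, over all expressed genes on autosomes. The counts covered 24421 genes, of which 23248 lay on autosomes, and 15372 of these had enough counts to be tested (about 10 counts in as many libraries as a group holds, by edgeR's filter). RNA was sequenced from lung at postnatal days 14 and 36 (P14 and P36), with 3 libraries in each of 4 groups, 12 in all. Control mice carried Tbx4 alleles flanked by loxP sites (Tbx4fl/fl), and TBX4-CKO mice were a conditional knockout of the same gene. The sources used here state neither the driver of Cre (and so the cells meant to lose the gene), nor the sex of the mice, nor whether Control mice carried Cre. By its title, the series addresses postnatal growth of lungs lacking Tbx4 and their susceptibility to pulmonary hypertension. The average asks what the CKO libraries of both ages have in common.

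Tbx4 is a T-box transcription factor gene active in mesenchyme, the connective tissue compartment that gives rise to lung fibroblasts, smooth muscle and pericytes. With its relative Tbx5 it acts in the embryonic lung bud, where signals from mesenchyme direct the branching of the epithelium. In people, loss of function of the gene is a known cause of pulmonary hypertension of childhood. P14 falls in the period when septa divide the airspaces into alveoli and fibroblasts lay down elastin, and P36 follows it.

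Library depth was 17806206 to 28481876 counts. All libraries had the markers of lung, with Sftpc of alveolar type 2 cells at 2326 to 7340 CPM (counts scaled by library size) and Pecam1 of endothelium at 500 to 767 CPM, while the cartilage genes Acan and Col2a1 did not exceed 0.71 CPM. The heart gene Myh6 reached 807 CPM in Control P14 replicate 2, 583 CPM in Control P14 replicate 3 and 517 CPM in CKO P36 replicate 3. The fat cell gene Adipoq reached 60.6 CPM in CKO P36 replicate 3. Library names in the labels carry a number, which Control P36 replicates 1 and 3 share, as do CKO P14 replicates 2 and 3. The coefficient of variation beyond counting noise was 2.02% and 3.89% within these pairs and 10.6% to 27.5% in the other pairs of a group. Y-linked genes exceeded Xist in 4 libraries, Control P36 replicate 2 and the 3 CKO P36 libraries, so sex went partly with genotype at P36. Whether each library is another animal is not stated in the labels, so the p-values reflect the spread among these libraries, which may be technical. Calls are therefore given as fitted, with libraries of a shared number summed, and with a term for sex. That term rests on Control P36 replicate 2 against Control P36 replicates 1 and 3, which share a number. With it the P36 contrast in effect sets the CKO libraries against Control P36 replicate 2 alone. Counts with the term are thus a weak check on sex, with or without summed libraries.

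Tbx4 (chromosome 11, 85890063 to 85916097, plus strand, mm10) did not pass the test in the average. It stood at 157, 110 and 134 CPM in Control and 129, 123 and 111 CPM in CKO at P14. Its P36 levels were 64.4, 79.8 and 62.7 CPM in Control and 87.4, 82.8 and 67.2 CPM in CKO. The groups overlapped at each age, CKO being on average lower at P14 but higher at P36, and the average log2 fold change was 0.03 ± 0.10 (SE, edgeR adjusted p = 0.949); with a term for sex it was -0.08, and -0.07 with summed libraries as well. The counts give 1 total per gene, so any transcripts that lacked a deleted exon would be counted with the rest. Whether such transcripts were present, and in what share of cells the gene was lost, was not tested. The gene total therefore does not check the labels, and every direction below rests on them.

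The libraries labelled CKO shared more rises than falls. Averaged over both ages, 492 of 15372 autosomal genes rose (3.2%) and 198 fell (1.29%) at an adjusted p under 0.05 in edgeR's quasi-likelihood test, 690 in all (4.49%). At least a 2-fold change was seen in 93 of the rises and 48 of the falls, and the median log2 fold change was 0.57 among genes that rose and -0.57 among those that fell. The chemokine Ccl11, the procollagen protease Adamts2, the growth factor Igf1 and dendritic cell genes were among the rises, and the BMP-binding protein Bmper, the transmembrane collagen Col23a1 and markers of alveolar type 1 cells among the falls. In bulk lung RNA, fewer cells of a type and less RNA per cell cannot be told apart. Counts were lower when libraries of a shared number were summed (161 rose, 67 fell), with a term for sex (306 and 147) and with both (77 and 32). Leaving out 1 library of a shared number also lowered them, to 287 and 108 without CKO P14 replicate 2, 268 and 101 without CKO P14 replicate 3, 307 and 122 without Control P36 replicate 1, and 303 and 115 without Control P36 replicate 3.

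Of the 690 genes, 656 had the same sign at both ages, 466 higher and 190 lower. Choosing genes by their average favours this, so the share (95.1%) is a description, beside 42.5% over all tested autosomal genes. The other 34 genes had opposite signs, and the effect was the larger at P14 in 26 of them. In 408 of the 690 every CKO library lay on the same side of every Control library at P14 and again at P36, 299 higher and 109 lower, where 3.39% of all tested genes had such a separation at any p (2.38% higher and 1.01% lower). The others were separated at P14 only (176) or at P36 only (106). Choosing genes by p favours separation as well, so these counts are also a description. The contrast at each age within the same fit called 675 genes at P14 (4.39%; 3.28% higher and 1.11% lower) and 356 at P36 (2.32%; 1.51% higher and 0.807% lower), and 68 rises and 19 falls passed at both ages (0.566%). These 87 genes were 12.9% of the P14 calls and 24.4% of the P36 calls, and 3 genes passed at both ages in opposite directions. The average also called 157 genes that passed at neither age alone. A difference of the genotype effect between the ages was called in 61 of the 690 (239 in all, 1.55% of genes tested).

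**Figure D1:**
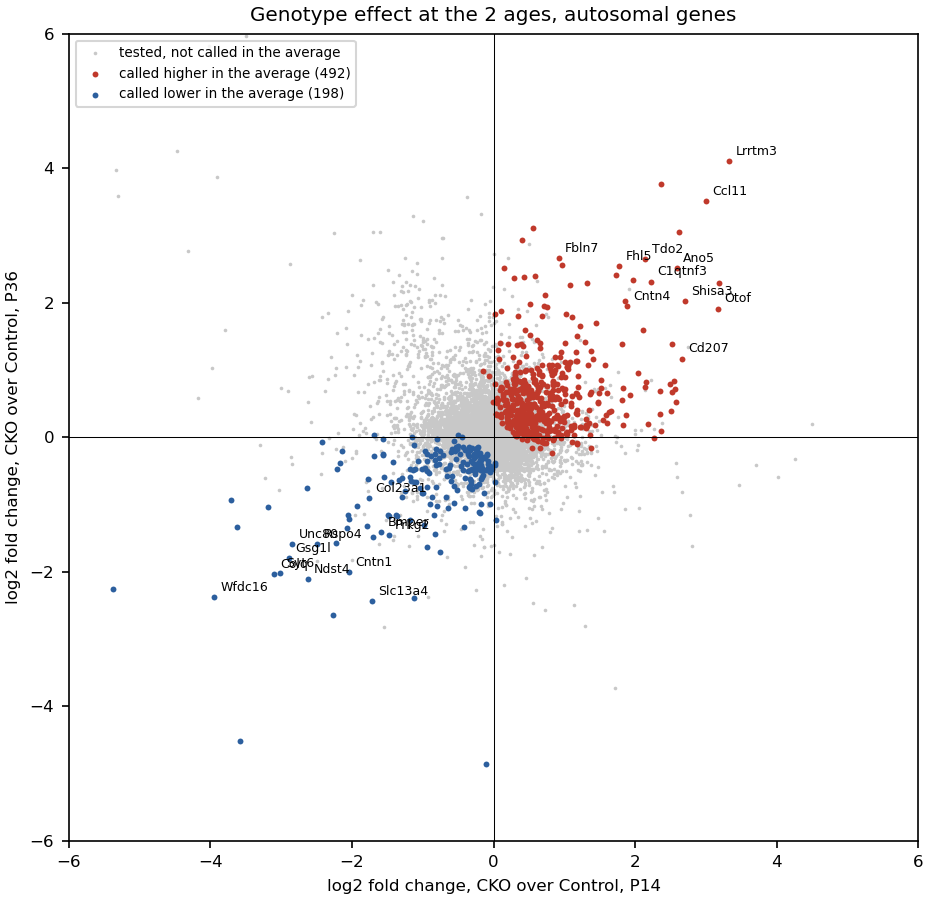
Log2 fold change of CKO over Control at P14 (x axis) and P36 (y axis) for the tested autosomal genes, 1 point per gene, red where the average was called higher (492 genes), blue where called lower (198) and grey otherwise. Most coloured points lie at the upper right and lower left, where both ages have the same sign; 5 genes lie outside the axes.

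A stricter set of 184 genes, 136 higher and 48 lower, was called in the average, separated at both ages in the same direction, and called with libraries of a shared number summed. With a term for sex 133 and 48 of them were still called, and 66 and 20 with summed libraries and the term together. Of the 184 genes, 183 were called in each of the 12 fits that left out 1 library, and 9 had a called difference between the ages. The largest changes described next were the 12 largest rises and 12 largest falls of this set with at least 1 CPM in a group at each age. All 24 were called in each leave-one-out fit and with a term for sex, and 15 were called with summed libraries and the term together. The set was chosen from the same libraries, and a fit without 1 library of a shared number keeps the other, so these counts are a description. A difference between the ages was called in 0 of them by edgeR, by DESeq2 in 2, and at an unadjusted p under 0.05 by edgeR in 4.

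The largest rises are described first. Separation of the groups at both ages was part of the rule for rises and falls alike, so it describes these genes and is no further result. Ccl11, eotaxin, is a chemokine that attracts eosinophils and is made by fibroblasts. It stood at 1.28, 2.96 and 2.94 CPM in Control and 16.7, 21.3 and 19.6 CPM in CKO at P14, and at 3.64, 3.14 and 3.99 CPM in Control and 46.9, 38.8 and 37.6 CPM in CKO at P36. The lowest CKO library was several times the highest Control library at each age, with an average log2 fold change of 3.26 ± 0.17 (SE, n = 3 libraries in each of 4 groups, edgeR adjusted p = 3.14e-06). The edgeR adjusted p was 0.000607 with summed libraries and 0.00645 with a term for sex as well. Lrrtm3, a leucine-rich adhesion protein of synapses, had the largest average rise, 3.72 ± 0.32 (adjusted p = 0.00012). Its level was low, at 0.426, 0.69 and 0.105 CPM in Control against 3.66, 4.59 and 4.27 CPM in CKO at P14, and 0.106, 0.127 and 0.0403 CPM against 1.48, 1.58 and 1.92 CPM at P36.

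C1qtnf3, a secreted protein related to adiponectin, rose to a like extent at both ages. CPM were 4.5, 4.88 and 5.57 in Control and 20.6, 24 and 24.9 in CKO at P14, and 4.24, 2.8 and 4.31 in Control and 22, 21.2 and 13.6 in CKO at P36. CKO P36 replicate 3 was the lowest of the CKO libraries and still above all Control libraries, and the log2 fold change was 2.22 at P14, 2.32 at P36 and 2.27 ± 0.15 on average (adjusted p = 1.2e-05).

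Ano5, an anoctamin of muscle and bone whose family includes ion channels and lipid scramblases, stood at 9.85, 4.44 and 6.31 CPM in Control and 51.3, 35.9 and 37 CPM in CKO at P14. Its values at P36 were 6.08, 3.57 and 5.44 CPM in Control and 35.6, 32.1 and 19.1 CPM in CKO, an average rise of 2.55 ± 0.23 (adjusted p = 0.000227). CKO P36 replicate 3 was again the lowest CKO library. Otof, otoferlin, a calcium sensor of vesicle release, rose by 3.16 at P14 and 1.91 at P36. Its CPM were 1.8, 1.38 and 1.26 in Control and 13.7, 13.8 and 12.6 in CKO at P14, and 0.848, 0.425 and 0.564 in Control and 2.27, 3.21 and 1.63 in CKO at P36. The groups did not overlap and the level was lower at P36 in both genotypes. The other rises were Tdo2, a tryptophan dioxygenase (2.40), Shisa3 (2.36), Fhl5, a LIM domain protein of smooth muscle (2.16), Cd207, the langerin of Langerhans and other dendritic cells (1.92), Cntn4, a contactin (1.91), and Fbln7, a fibulin (1.79). Their group means were at most 9.01 CPM, except Cntn4 at 32.5 and 32.8 CPM in CKO. Cd207 was not called by the contrast at P36 (edgeR adjusted p = 0.166), nor Fbln7 by that at P14 (0.0953). Of these 6 only Shisa3 and Fbln7 were called with summed libraries and a term for sex together (adjusted p = 0.0412 and 0.0477, against 0.0535 to 0.0881 for the other 4).

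Col23a1, Bmper and Prkg2 were the falls with the highest levels. Col23a1, a transmembrane collagen, stood at 103, 103 and 118 CPM in Control and 36.9, 28.5 and 30.5 CPM in CKO at P14, and at 78.5, 104 and 77.6 CPM in Control and 38.6, 55.5 and 45.6 CPM in CKO at P36. All CKO libraries were below all Control libraries, with an average log2 fold change of -1.33 ± 0.11 (SE, n = 3 libraries in each of 4 groups, edgeR adjusted p = 0.00012). The edgeR adjusted p was 0.00276 with summed libraries and 0.00533 with a term for sex as well. Bmper, a secreted protein that binds BMP ligands and modulates their signal in endothelium, stood at 40.9, 28.9 and 29.2 CPM in Control and 15.1, 8.46 and 9.44 CPM in CKO at P14. At P36 its levels were 17.2, 19.6 and 16.4 CPM in Control and 6.48, 6.46 and 7.11 CPM in CKO. It changed by a like amount at both ages, -1.59 and -1.41, with an average of -1.50 ± 0.15 (adjusted p = 0.000228). Prkg2, a kinase driven by cyclic GMP, stood at 30.7, 20.3 and 27.9 CPM in Control and 13.5, 7.93 and 6.99 CPM in CKO at P14. At P36 it stood at 29.9, 49.9 and 34.6 CPM in Control and 13.9, 13.6 and 14.3 CPM in CKO, with an average log2 fold change of -1.47 ± 0.18 (adjusted p = 0.00135). The smallest gap between the groups was at P14, between Control replicate 2 and CKO replicate 1.

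Slc13a4, a sulfate transporter, stood at 1.52, 2.02 and 3.31 CPM in Control and 0.675, 0.764 and 0.626 CPM in CKO at P14. Its P36 levels were 4.7, 6.2 and 4.79 CPM in Control and 1.16, 0.946 and 0.795 CPM in CKO, and its average log2 fold change was -2.07 ± 0.21 (adjusted p = 0.000228). The Control level was higher at P36, while the CKO level stayed near 1 CPM. Cntn1, contactin 1, an adhesion protein of axons, had CPM of 4.07, 3.5 and 2.42 in Control and 1.18, 0.526 and 0.73 in CKO at P14. At P36 its CPM were 6.15, 7.99 and 5.8 in Control and 1.53, 1.16 and 2.22 in CKO. The groups were apart at both ages and the average was -2.03 ± 0.22 (adjusted p = 0.00046).

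Wfdc16, of the whey acidic protein family, had the largest average fall, -3.16 ± 0.51 (adjusted p = 0.00525), at low levels. It stood at 2.27, 2.17 and 3.1 CPM in Control and 0.45, 0 and 0.0521 CPM in CKO at P14, and at 1.38, 3.1 and 1.29 CPM in Control and 0.278, 0.158 and 0.628 CPM in CKO at P36. CKO P36 replicate 3 was the nearest to Control, and Wfdc16 was not called with summed libraries and a term for sex together (adjusted p = 0.0544). The other falls were Colq, the collagen tail of acetylcholinesterase (-2.57), Syt6, a synaptotagmin (-2.52), Ndst4, a heparan sulfate sulfotransferase (-2.36), Gsg1l, an accessory protein of glutamate receptors (-2.34), Unc80, a subunit of a sodium leak channel (-2.21), and Rspo4, an R-spondin that raises Wnt signalling (-2.04). The contrast at P36 did not call Wfdc16, Colq, Syt6, Gsg1l, Unc80 or Rspo4 (edgeR adjusted p = 0.0587 to 0.0969). Each of these fell more at P14, as Unc80 did (-2.84 at P14 and -1.59 at P36). The count table lists exons of Syt6 that overlap exons of Atg4a on the other strand, and with no statement of the strand of counting Syt6 is uncertain. With summed libraries and a term for sex together Ndst4 and Unc80 were called (adjusted p = 0.0334 and 0.0141), and the other 4 were not (0.0507 to 0.14).

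Lrrtm3, Cntn4 and Cntn1 belong to a list of axon guidance and synaptic adhesion. Of its 50 tested members 7 rose and 3 fell (beside 3.2% and 1.29% of all tested genes), with a median of 0.02. The netrin receptor gene Unc5d (-1.23) was another of its falls. The rises numbered 4 without CKO P14 replicate 2 or 3 and 3 with summed libraries, and the falls 5 without CKO P14 replicate 1.

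**Figure D2:**
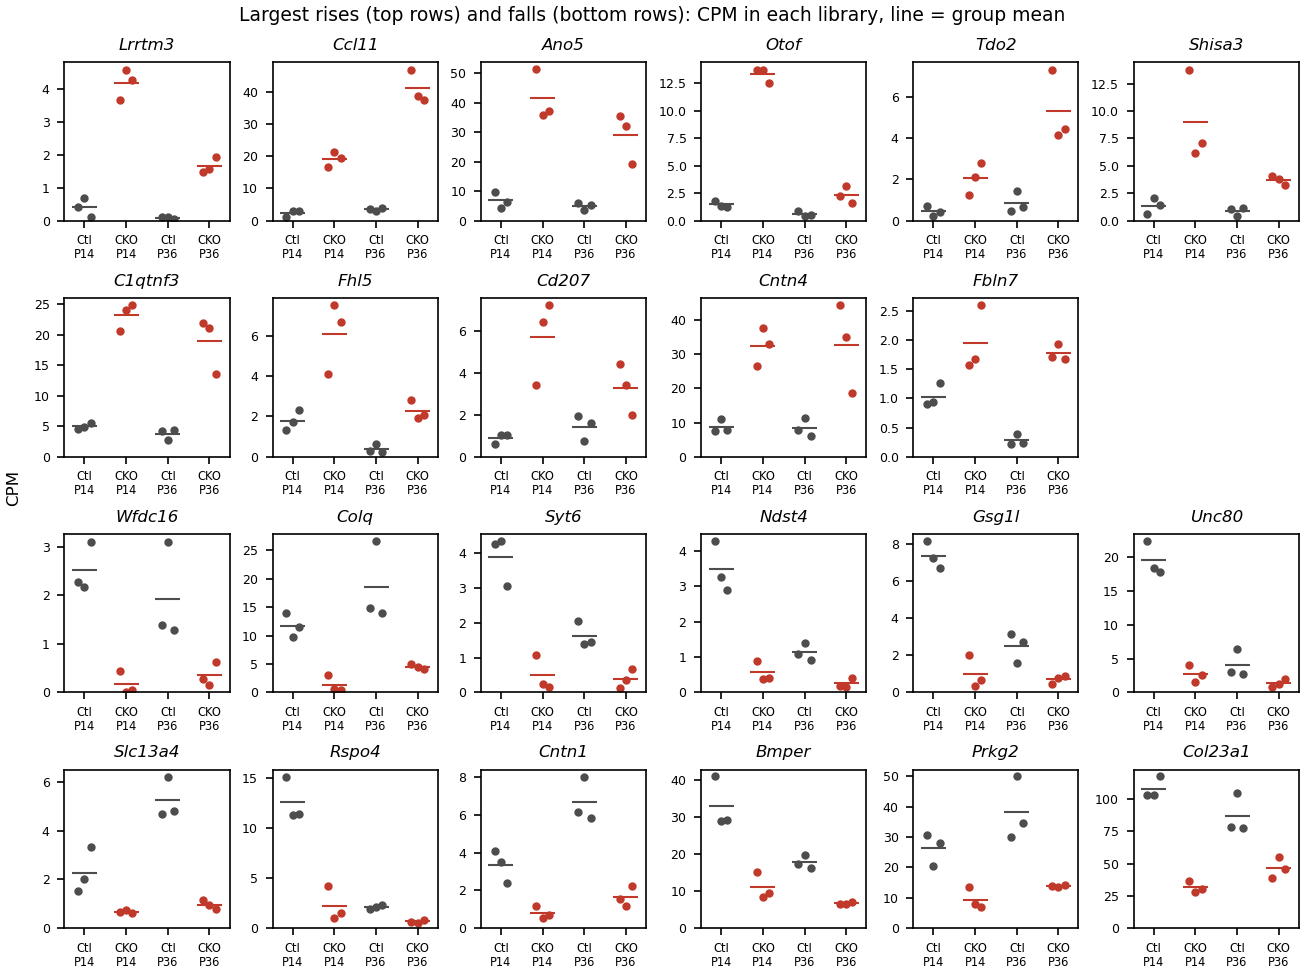
CPM (y axis) in each library for 11 of the largest rises (upper 2 rows of panels) and the 12 largest falls (lower 2 rows), by group; grey points are Control and red points CKO, and the line is the mean of 3 libraries. In every panel the CKO and Control points of an age do not overlap, as the rule that chose the genes requires.

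Promoter sequence was compared because Tbx4 binds DNA through a T-box. The stretches from 70 bases before to 30 bases after the start site are shown for 3 genes called in the average and separated at both ages, Wfdc16 as the named gene that holds a match and Bmper and C1qtnf3 as a fall and a rise that hold none, 5′ to 3′ on the strand of the gene, from RefSeq for GRCm38.p6, with the T-box core in capitals.
Wfdc16 (chr2:164638773-164638872, minus strand): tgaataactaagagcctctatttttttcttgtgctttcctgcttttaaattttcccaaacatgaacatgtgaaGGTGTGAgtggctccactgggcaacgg
Bmper (chr9:23223006-23223105, plus strand): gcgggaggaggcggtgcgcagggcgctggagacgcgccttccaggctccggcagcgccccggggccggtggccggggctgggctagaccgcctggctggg
C1qtnf3 (chr15:10952262-10952361, plus strand): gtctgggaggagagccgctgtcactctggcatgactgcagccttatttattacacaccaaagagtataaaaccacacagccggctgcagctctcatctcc
The letters GGTGTGA, searched on both strands from 250 bases before to 50 after the start, were in 477 of 11375 tested autosomal genes with a window (4.19%). They were in 10 of 359 genes called higher (2.79%), in 5 of 136 called lower (3.68%), in 1 of 100 of the stricter set that rose (1.0%) and in 2 of 32 of that set that fell (6.25%). A window was given for 17 of the 24 genes with the largest changes, and 1 of these, Wfdc16, held the letters. A match is a description of the letters and shows no binding.

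Matrix genes of connective tissue were called mostly in the higher direction, beside 4.49% of all tested genes called in either direction and a median of 0.00 over all genes. Of 22 genes of elastic fibres, the stretchable fibres of alveolar walls and vessels, 11 rose and 1 fell. In 10 the groups were separated upward at both ages, beside 2.38% of all tested genes. The median log2 fold change was 0.33 at P14, 0.46 at P36 and 0.38 on average. Loxl2, a lysyl oxidase that crosslinks elastin and collagen, stood at 147, 118 and 127 CPM in Control and 195, 164 and 177 CPM in CKO at P14, and at 52.1, 62.5 and 52 CPM in Control and 102, 91.7 and 97.2 CPM in CKO at P36. The groups did not overlap and the average rise was 0.63 ± 0.07 (adjusted p = 0.000504). Its relative Loxl1 rose by 0.67, the microfibril protein Fbn1 by 0.51, Fbln1, a fibulin, by 0.92 and Eln, elastin itself, by 0.89 ± 0.16 (adjusted p = 0.0103). Eln was far higher at P14, at 5060, 3803 and 4413 CPM in Control and 5872, 6037 and 5799 CPM in CKO, than at P36, at 324, 584 and 335 CPM in Control and 1365, 923 and 896 CPM in CKO. CKO was the higher at each age without overlap, and Eln was not called with summed libraries (adjusted p = 0.0929). Mfap4, a microfibril-associated protein, was the member that fell (-0.79), called in 3 of the 12 leave-one-out fits and not with summed libraries. With summed libraries 3 of these 22 genes rose, with the sex term 6 rose and 1 fell; 8 rose without CKO P14 replicate 2 and 13 without CKO P36 replicate 3.

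Among 28 genes for fibrillar collagens and the enzymes that process them 9 rose and 1, Pcolce2, an enhancer of procollagen cleavage, fell. The median was 0.18, and 3.2% of all tested genes rose and 1.29% fell. Adamts2 removes the amino-terminal propeptide of fibrillar procollagen. It stood at 226, 214 and 229 CPM in Control and 344, 365 and 364 CPM in CKO at P14, and at 89.4, 89 and 89.2 CPM in Control and 167, 157 and 177 CPM in CKO at P36. The spread within each group was small beside the gap, and the average rise of 0.79 ± 0.04 had an adjusted p of 2.63e-06, and 0.00428 with summed libraries and a term for sex. Col3a1, the type III collagen chain, stood at 1838, 2079 and 2136 CPM in Control and 2638, 2457 and 2414 CPM in CKO at P14. At P36 the gene stood at 666, 726 and 640 CPM in Control and 1378, 1148 and 1692 CPM in CKO. The groups did not overlap, and the average of 0.68 ± 0.09 (adjusted p = 0.00135) joined 0.31 at P14 and 1.05 at P36. Col5a2 rose by 0.55 and Adamts3, a relative of Adamts2, by 1.04. The count of rises was 4 with summed libraries, 5 with the sex term and 6 without CKO P14 replicate 2. Col1a1, the main type I chain, did not pass (0.40, adjusted p = 0.28).

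Among 27 matrix proteases and their inhibitors 9 rose and 2 fell (beside 3.2% and 1.29% of all tested genes), with a median of 0.10. Mmp2, a gelatinase of fibroblasts, stood at 280, 224 and 295 CPM in Control and 466, 467 and 472 CPM in CKO at P14, and at 134, 127 and 138 CPM in Control and 303, 240 and 250 CPM in CKO at P36. The groups were far apart at both ages, an average rise of 0.90 ± 0.08 (adjusted p = 0.000105). Adamts12 rose by 1.02, Serpine2, an inhibitor of thrombin and plasmin, by 0.51 and Mmp19 by 0.41, while A2m, the inhibitor alpha-2-macroglobulin (-2.48), and Adamts8 (-0.78) fell, called in 5 and 8 of the 12 leave-one-out fits and neither with summed libraries. The rises numbered 3 with summed libraries and 5 without Control P36 replicate 1 or 3. Of 23 small proteoglycans and hyaluronan genes 5 rose, Itih5 by 0.99, Aspn (asporin) by 1.08, Fmod by 0.78, Prelp by 0.69 and Vcan by 0.64, and Ogn fell (-0.53). Of 25 basement membrane genes 4 rose, the laminin chains Lama2 (0.70) and Lama4 (0.19), Frem1 (0.57) and Nid1 (0.37), and Npnt fell (-0.59, called in 6 of the 12 leave-one-out fits). The basement membrane list had 1 rise without CKO P14 replicate 3, Control P36 replicate 1 or Control P36 replicate 3 and 2 without CKO P36 replicate 1, and with summed libraries Lama2 alone was called.

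Of 34 transcription factors of lung mesenchyme 9 rose and 1 fell (beside 3.2% and 1.29% of all tested genes), with a median of 0.23. The same sign at both ages was seen in 18 of the 34, beside 42.5% of all tested genes. Prrx1, a homeodomain factor of fibroblast progenitors, stood at 41.6, 49 and 44.7 CPM in Control and 85.4, 74.9 and 82.1 CPM in CKO at P14, and at 32.5, 29.3 and 32.5 CPM in Control and 50.5, 47.7 and 64.7 CPM in CKO at P36. It was higher in all CKO libraries of an age, by 0.84 and 0.79 at P14 and P36 and 0.82 ± 0.08 on average (adjusted p = 0.000166). Nr2f2, an orphan nuclear receptor of mesenchyme and veins, stood at 225, 191 and 199 CPM in Control and 286, 265 and 278 CPM in CKO at P14. Its values at P36 were 159, 162 and 158 CPM in Control and 228, 227 and 209 CPM in CKO, and the average rise was 0.45 ± 0.05 (adjusted p = 0.000454). Its groups did not overlap either. Gli3, an effector of Hedgehog signalling, rose by 0.33. Tcf21, a factor of lung lipofibroblasts, was the member that fell. Its CPM were 91, 51.7 and 81.5 in Control and 57.8, 49.6 and 49.6 in CKO at P14, and 43.4, 41.2 and 41.2 in Control and 26, 24.4 and 22.4 in CKO at P36. Control P14 replicate 2 lay among the CKO libraries, and the average of -0.65 ± 0.12 (adjusted p = 0.00956) was not called with summed libraries (0.0856) or a term for sex (0.0507). The rises in this list numbered 4 with summed libraries, 7 with the sex term and 5 without CKO P14 replicate 3, and its median was negative at P14 (-0.06) and positive at P36 (0.45).

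Of 20 genes of PDGF and IGF signalling 4 rose and 1 fell, beside 3.2% and 1.29% of all tested genes. Igf1, insulin-like growth factor 1, a growth factor of lung mesenchyme and macrophages, stood at 121, 143 and 156 CPM in Control and 290, 256 and 271 CPM in CKO at P14, and at 67.1, 80.9 and 69.2 CPM in Control and 127, 117 and 161 CPM in CKO at P36. The levels did not overlap, and the rise was 0.96 at P14, 0.90 at P36 and 0.93 ± 0.09 on average (adjusted p = 0.000223, and 0.0334 with summed libraries and a term for sex). The binding protein genes Igfbp3 (1.13) and Igfbp2 (-0.85, called in 2 of the 12 leave-one-out fits) moved in opposite directions, and the protease gene Pappa (0.45) and Pdgfrl (0.75) rose. The count of rises was 2 without any of Control P14 replicates 1 and 2, CKO P14 replicates 2 and 3, Control P36 replicates 1 and 3 and CKO P36 replicate 1, each left out in turn, and with summed libraries Igf1 alone was called.

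Of 26 genes of TGF-beta signalling 5 rose and 1 fell, beside 3.2% and 1.29% of all tested genes. The fall, of the receptor gene Acvr2a (-0.17), was called in 1 of the 12 fits that left out 1 library and not with summed libraries. Tgfb3, a ligand, stood at 54.7, 40.9 and 45.5 CPM in Control and 91.3, 82 and 77.4 CPM in CKO at P14, and at 36.5, 25.9 and 38.1 CPM in Control and 81.5, 53.9 and 57.4 CPM in CKO at P36. CKO was the higher in all libraries, by 0.88 ± 0.13 (adjusted p = 0.0033). Itgb8, an integrin chain that releases active TGF-beta, rose by 1.11, Lrrc32, which holds latent TGF-beta at the cell surface, by 0.62, Pmepa1, a feedback inhibitor, by 0.48 and Ltbp1, a latent TGF-beta binding protein, by 0.28. The count was 3 with summed libraries, and also without CKO P14 replicate 2 or Control P36 replicate 3.

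Among 35 genes of BMP signalling, the pathway whose receptor gene is mutated in heritable pulmonary hypertension, 7 rose and 2 fell, with a median of 0.06. These counts and those of the Hedgehog and Wnt lists below stand beside 3.2% of all tested genes that rose and 1.29% that fell. The ligand gene Bmp5 stood at 92.1, 57.1 and 75.7 CPM in Control and 149, 141 and 148 CPM in CKO at P14, and at 74.2, 86.7 and 76.4 CPM in Control and 142, 138 and 116 CPM in CKO at P36. Its average rise was 0.85 ± 0.10 (adjusted p = 0.000896) with no overlap at either age. The ligand gene Bmp4 rose by 0.35 and Fstl1, a secreted antagonist, by 0.48, while Bmper and the signal transducer Smad9 (-0.29) fell, Smad9 being called in 4 of the 12 leave-one-out fits. The count of rises was 4 without CKO P14 replicate 3 and 4 with summed libraries. In Hedgehog signalling 3 of 19 rose, the effectors Gli2 (0.35) and Gli3 among them, and Scube2, a secreted carrier of the ligand, fell. With summed libraries 1 rose, and Gli2 was called in 2 of the 12 leave-one-out fits. In Wnt signalling 2 of 45 were higher, Dkk3 (0.68) and Dkk2 (1.02) of the Dickkopf family of Wnt regulators, Dkk2 being called in 2 of the 12 leave-one-out fits and not with summed libraries, and 5 were lower. These were the R-spondin gene Rspo4 (-2.04), its receptor gene Lgr5 (-1.34), the Wnt deacylase gene Notum (-0.99) and the ligand genes Wnt7a (-0.62) and Wnt3a (-0.51). The falls numbered 2 with summed libraries and 2 with the sex term. They numbered 2 without any single library of a shared number and 3 without Control P14 replicate 1 or 3, Control P36 replicate 2, or CKO P36 replicate 1 or 2.

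Of 32 genes of vascular tone and pulmonary hypertension 4 rose and 2 fell (18.8% called, beside 4.49% of all tested genes), with a median of 0.01. A single rise remained without any 1 library of a shared number or with summed libraries, and 2 without Control P14 replicate 2 or 3 or CKO P36 replicate 2. Abcc9, the sulfonylurea receptor of the potassium channel of pericytes and vascular smooth muscle, stood at 36.8, 56.1 and 52.3 CPM in Control and 70.9, 95.5 and 97.4 CPM in CKO at P14. At P36 it stood at 33.9, 26.7 and 32.7 CPM in Control and 71.1, 64.9 and 76.8 CPM in CKO, a rise of 1.03 ± 0.12 (adjusted p = 0.000736) with no overlap. Kcnj8, the pore subunit of the same channel, rose by 0.68, but was called in 8 of the 12 fits that left out 1 library. Edn1, the vasoconstrictor endothelin, rose by 0.59 in the fit of all libraries and was called in 4 of those 12. Ptgir, the prostacyclin receptor (0.45), also rose, and Prkg2 and Smad9 were the falls. Adm, the vasodilator adrenomedullin of the VEGF and angiopoietin list, rose by 1.44 ± 0.23 (adjusted p = 0.00631), and Angpt1, the ligand of Tie2, fell by 0.54 on the log2 scale (adjusted p = 0.00245). Pericyte markers had a median of 0.33 and 2 of 18 called, Abcc9 and Kcnj8, with 1 called without CKO P14 replicate 2 or 3 or Control P36 replicate 1 or 3, 4 without Control P36 replicate 2 and 5 without CKO P36 replicate 3.

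Markers of 2 fibroblast types were called in opposite directions. Of 22 adventitial fibroblast markers, cells of the sheath of vessels and airways, 5 rose and 1 fell, with a median of 0.17. Among 23 alveolar fibroblast markers 1 rose and 6 fell, with a median of -0.18. Over all tested genes 3.2% rose and 1.29% fell. With summed libraries 3 adventitial markers rose and 3 alveolar markers fell, and without CKO P36 replicate 3 the adventitial median was 0.08. Aspn, an adventitial and myofibroblast marker that binds TGF-beta and collagen, stood at 298, 194 and 244 CPM in Control and 490, 489 and 555 CPM in CKO at P14, and at 43.9, 41.9 and 50.2 CPM in Control and 107, 97.8 and 87.5 CPM in CKO at P36. The groups did not overlap, a rise of 1.08 ± 0.10 (adjusted p = 0.000144). Scube2, an alveolar fibroblast marker, stood at 261, 187 and 242 CPM in Control and 112, 67.8 and 64.8 CPM in CKO at P14. Its P36 levels were 75.3, 69.2 and 77 CPM in Control and 32.8, 35.8 and 30.4 CPM in CKO, an average of -1.33 ± 0.14 (adjusted p = 0.00046) with every CKO library below every Control library. Nebl (-0.39), Slc7a10 (-0.83), Npnt and Mfap4 fell with it, called in 6 and 3 of the 12 leave-one-out fits, and Meox2 rose (0.63), called in 10. The adventitial markers summed to 2253 to 2722 CPM in Control and 3258 to 3651 CPM in CKO at P14, and to 2859 to 3166 and 3222 to 3971 CPM at P36, where CKO replicate 3 was the highest. Ccl11, Aspn, Gsn, Mfap5 and Col14a1 were the rises among these markers, all 22 passed the count filter, and the part of the cell type in the result was not tested. The 5 rises were 3 without CKO P14 replicate 2, CKO P14 replicate 3 or Control P36 replicate 3.

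Among epithelial cells, markers of alveolar type 1 cells were called and those of type 2 cells were not. Alveolar type 1 cells are the thin lining across which gas is exchanged. Of their 19 markers 9 fell and 1 rose, beside 1.29% and 3.2% of all tested genes. The median was -0.18 at P14, -0.48 at P36 and -0.30 on average. Both ages were negative in 16 markers, beside 3191 of 15372 tested genes, and 3 were separated downward at both ages, beside 1.01%. The contrast at P14 called 0 of the markers lower and 1 higher, and that at P36 called 5 lower. Hopx, a homeodomain protein of these cells, stood at 186, 148 and 169 CPM in Control and 132, 137 and 133 CPM in CKO at P14, and at 369, 320 and 357 CPM in Control and 228, 206 and 213 CPM in CKO at P36. CKO was below Control in all libraries, with an average of -0.51 ± 0.06 (adjusted p = 0.000668). Gprc5a (-0.40) and Lmo7 (-0.31) fell as well, and Timp3, a metalloprotease inhibitor, rose (0.40, called in 3 of the 12 leave-one-out fits). The count of falls depended on single libraries. It was 3 without Control P14 replicate 3 or Control P36 replicate 3, 4 without Control P14 replicate 1, CKO P14 replicate 3, Control P36 replicate 1 or CKO P36 replicate 2, and 5 without CKO P14 replicate 2 or CKO P36 replicate 3. It was 13 without Control P14 replicate 2, 3 with summed libraries and 4 with the sex term. The summed type 1 markers were 8512 to 10110 CPM in Control and 9737 to 9918 CPM in CKO at P14, and 13990 to 14930 and 10870 to 11420 CPM at P36. Markers of alveolar type 2 cells had 0 of 19 called in edgeR (2 at an unadjusted p under 0.05, and 1 called by DESeq2), and their median was 0.42 at P14 and -0.29 at P36.

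Immune lists differed in their counts. Of 20 T cell, 18 B and plasma cell and 13 neutrophil markers edgeR and DESeq2 called 0 in the average, with 4, 6 and 2 at an unadjusted p under 0.05 in edgeR, and the median of the B and plasma cell markers was -0.29 at P14 and -0.27 at P36. Of 36 interferon response genes 1 rose (2.78%, beside 3.2% of all tested genes). Of 21 dendritic cell markers 12 rose, with a median of 0.90 at P14, 0.35 at P36 and 0.53 on average. The contrast at P14 called 11 of the 21 higher and that at P36 called 1, beside 3.28% and 1.51% of all tested genes. In 8 of the 21 the groups were separated upward at both ages, beside 2.38% of all tested genes. The rises numbered 7 with summed libraries, 11 with the sex term and 13 without CKO P36 replicate 3. Xcr1, a chemokine receptor of cross-presenting dendritic cells, stood at 1.66, 2.12 and 2.58 CPM in Control and 8.95, 13.7 and 14.3 CPM in CKO at P14, and at 7.56, 5.35 and 6.73 CPM in Control and 12.8, 12.2 and 10.2 CPM in CKO at P36. All CKO libraries were above all Control libraries of their age, and the rise of 1.69 ± 0.15 (adjusted p = 0.000141) joined 2.54 at P14 and 0.84 at P36. Clec9a, a receptor of the same cells for dead cell debris, rose by 1.52 and Wdfy4, needed for cross-presentation, by 0.77. Flt3l, the growth factor of dendritic cells, rose by 0.77. The dendritic markers summed to 229 to 240 CPM in Control and 330 to 449 CPM in CKO at P14, and to 330 to 380 and 381 to 509 CPM at P36.

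Ccr2, the receptor by which monocytes leave the marrow, stood at 20.6, 21.3 and 20.9 CPM in Control and 56.9, 66.2 and 72 CPM in CKO at P14, and at 70.3, 61 and 73.9 CPM in Control and 94.6, 84.4 and 88.7 CPM in CKO at P36. The groups were apart at both ages, with an average rise of 1.01 ± 0.07 (adjusted p = 1.2e-05, and 0.00428 with summed libraries and a term for sex). Of 18 monocyte markers 3 rose, Ccr2, Vcan and Itgal (0.23), and 1 fell, beside 3.2% and 1.29% of all tested genes. The fall, of the fibronectin gene Fn1 (-0.49), was called in 3 of the 12 leave-one-out fits and not with summed libraries. Of 23 complement genes 7 rose, with a median of 0.68 at P14 and 0.03 at P36, and 2 rose with summed libraries and 4 without CKO P14 replicate 2 or 3. The contrast at P14 called 9 of the 23 higher and that at P36 called 2, beside 3.28% and 1.51% of all tested genes. C3ar1, the receptor of the complement peptide C3a on myeloid cells, stood at 8.43, 8.09 and 9.99 CPM in Control and 13.7, 14.4 and 15 CPM in CKO at P14, and at 9.89, 8.88 and 11 CPM in Control and 19.2, 15.9 and 16.6 CPM in CKO at P36. It was higher in every CKO library, by 0.75 ± 0.08 (adjusted p = 0.00046), and the protease gene C1s1 rose by 0.80 ± 0.07 (adjusted p = 0.000143). Of 21 interstitial macrophage markers 6 rose, C1qa, C1qc, Cx3cr1 and Mgl2 among them, with 3 rises without CKO P14 replicate 2 or 3. Their median was 0.43 at P14 and 0.10 at P36. At P14 6 of the 21 were called higher and at P36 0, beside 3.28% and 1.51% of all tested genes. With summed libraries edgeR called 0 of them higher, and 9 were higher at an unadjusted p under 0.05; with the sex term 4 rose and 1 fell.

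Genes of MHC class II presentation rose in the average without being separated at both ages. Of 12 members 7 rose (1 with summed libraries, 7 with the sex term), beside 3.2% of all tested genes. The median was 0.92 at P14 and 0.13 at P36. H2-Aa, a class II chain, stood at 134, 101 and 132 CPM in Control and 245, 340 and 333 CPM in CKO at P14, and at 393, 328 and 393 CPM in Control and 503, 380 and 368 CPM in CKO at P36. The groups were apart at P14 and overlapped at P36, and the average of 0.75 ± 0.12 (adjusted p = 0.00444) joined 1.32 at P14 and 0.17 at P36. The mast cell protease genes Tpsb2 (2.83, adjusted p = 0.0283) and Cpa3 (2.15, adjusted p = 0.0304) rose at group means of at most 3.9 CPM, were highest at P36 in CKO replicate 3, and were called in 6 and 4 of the 12 fits that left out 1 library.

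**Figure D3:**
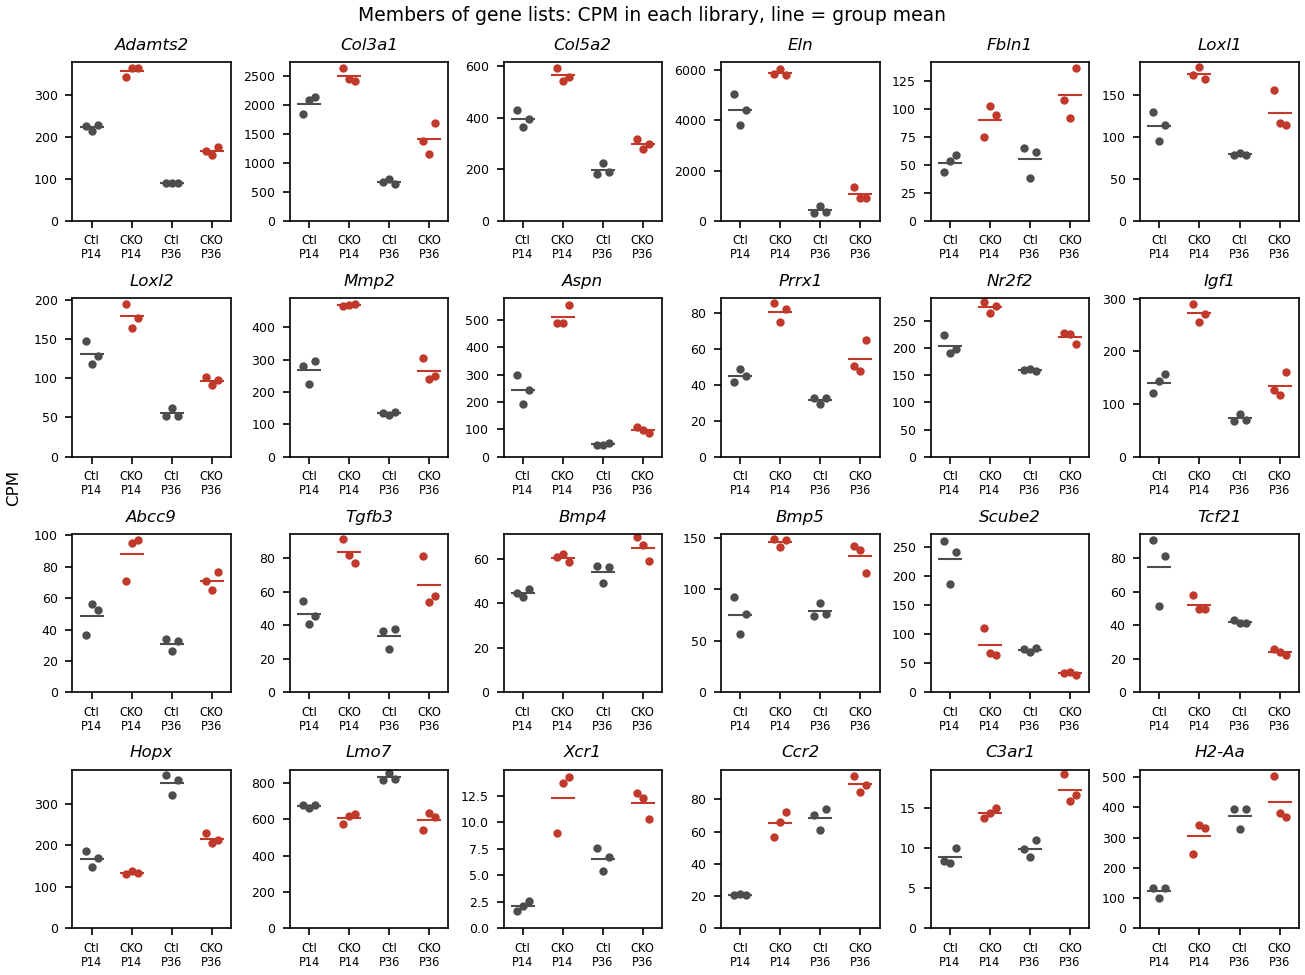
CPM (y axis) in each library for 24 genes of the lists described, by group, with Control grey, CKO red and the mean of 3 libraries as a line. Matrix, mesenchymal and ligand genes such as Adamts2, Mmp2 and Igf1 are separated at both ages, while Tcf21 overlaps at P14 and H2-Aa at P36.

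Some lists had medians of opposite sign at the 2 ages. Adipose markers had medians of -0.55 at P14 and 1.52 at P36, cardiac muscle markers -1.03 and 1.46, and club and secretory cell markers -1.55 and 0.32, with 0 members of the 3 lists called in the average in edgeR or DESeq2, except 1 adipose marker in DESeq2 (at an unadjusted p under 0.05 edgeR had 1 adipose and 1 cardiac marker). Summed cardiac markers ran from 399 to 5918 CPM within Control at P14 and from 436 to 3723 CPM within CKO at P36, where replicate 3 was the highest. Without CKO P36 replicate 3 the average median turned from 0.43 to -0.80 for adipose and from 0.24 to -0.63 for cardiac markers. Among 30 genes of the cell cycle edgeR and DESeq2 called 0 in the average, with 1 at an unadjusted p under 0.05 in edgeR and a median of 0.05. Among 23 genes of cholesterol synthesis edgeR called 0, while 9 were lower at an unadjusted p under 0.05 and DESeq2 called 1, with a median of -0.13.

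**Figure D4:**
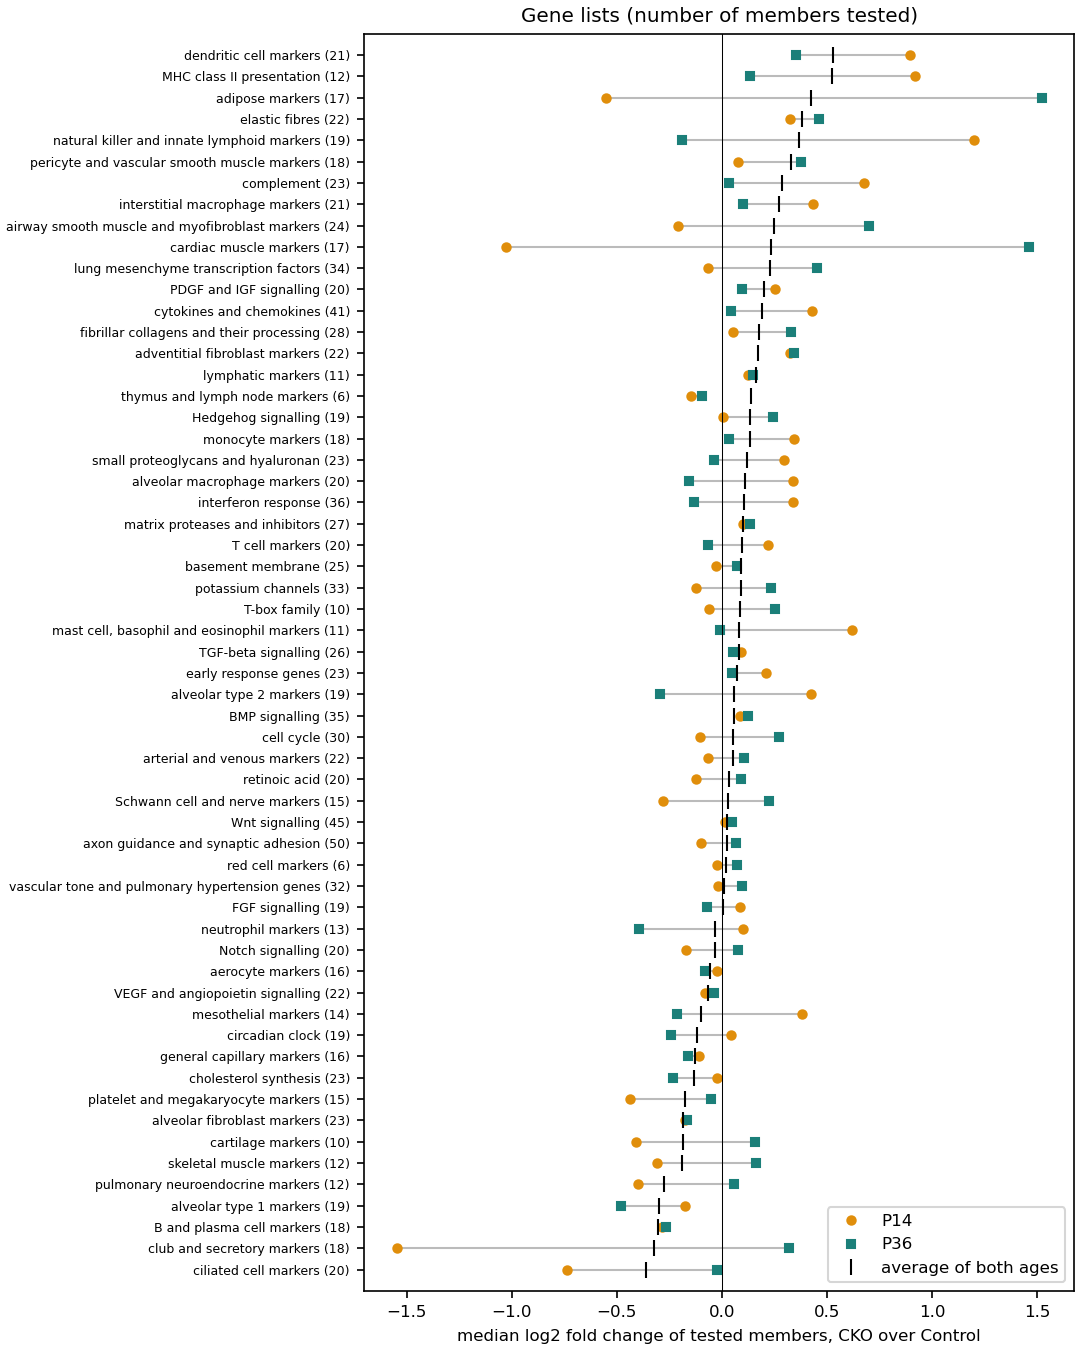
Median log2 fold change of CKO over Control over the tested members of each of 58 gene lists at P14 (circles), at P36 (squares) and averaged (bars), with the number of members in brackets. Elastic fibre, dendritic and adventitial fibroblast lists lie to the right and alveolar type 1 and alveolar fibroblast lists to the left at both ages, while adipose, cardiac and club cell lists change side.

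Single libraries differed in how far they carried the shared effect. For each of the 690 genes a library was on the side of its own genotype when it lay on that side of the midpoint of the Control and CKO means of its age. The genes were called from these same libraries, and each library enters its own midpoint. High shares are favoured by this choice, so they are a description. At P14 this held for 93.2%, 87.4% and 95.8% of the genes in Control replicates 1 to 3 and for 90.4%, 94.9% and 95.8% in CKO. At P36 it held for 87.5%, 93.3% and 87.7% in Control and for 93.6%, 88.3% and 79.4% in CKO. CKO P36 replicate 3 was thus the lowest, and over all tested genes the share was 54.8% to 67.2%. In the 12 fits that each left out a library, 364 (without CKO P14 replicate 3) to 607 (without CKO P36 replicate 3) of the 690 were called, and 339 were called in all 12.

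Genes chosen at 1 age were then read in the libraries of the other, which had no part in the choice. A fit of the 6 P14 libraries alone called 485 autosomal genes, 355 higher and 130 lower. At P36 337 of them (69.5%) had the same sign, 173 (35.7%) were separated in the same direction and 23 in the opposite direction, while 53.0% of all tested genes were positive and 22.4% separated in either direction. Their median log2 fold change, signed by the P14 direction, went from 0.74 at P14 to 0.17 at P36. A fit of the 6 P36 libraries alone called 200 genes, 112 higher and 88 lower. At P14 147 of these (73.5%) had the same sign, 87 (43.5%) were separated in the same direction and 8 in the opposite direction, against 47.9% of all tested genes positive and 24.1% separated. Their signed median went from 0.79 at P36 to 0.29 at P14. Without CKO P36 replicate 3 the P36 fit called 334 genes, of which 242 (72.5%) had the same sign at P14.

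Read in single libraries, the 485 genes chosen at P14 lay toward the CKO side in each CKO library at P36 and toward the Control side in each Control library. The median signed log2 difference from the midpoint of the group means was 0.20, 0.06 and 0.03 in CKO replicates 1 to 3 and -0.05, -0.19 and -0.05 in Control. At P14 the 200 genes chosen at P36 had medians of 0.17, 0.17 and 0.13 in CKO and -0.21, -0.03 and -0.18 in Control. With rises and falls pooled all 12 libraries were on their own side, and CKO P36 replicate 3 and Control P14 replicate 2 were the nearest to 0. Each library enters the midpoint of its own age, so Control and CKO values mirror each other. The libraries of an age are therefore not separate checks. Over the 355 rises chosen at P14, CKO P36 replicate 3 had a median of 0.01, with 51.0% of the genes on the CKO side. Taken apart by direction this did not hold for Control P14 replicate 2, whose median over the 88 falls chosen at P36 was 0.12, on the CKO side, with 68.2% of these genes there. The 2 fits shared 55 genes in the same direction, 43 higher and 12 lower, and 0 in the opposite direction, or 11.3% of the P14 list and 27.5% of the P36 list. Ccl11, Lrrtm3, C1qtnf3, Adamts2, Mmp2, Igf1, Prrx1 and Bmp5 were among the 43, and Bmper, Cntn1, Prkg2 and Rspo4 among the 12.

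**Figure D5:**
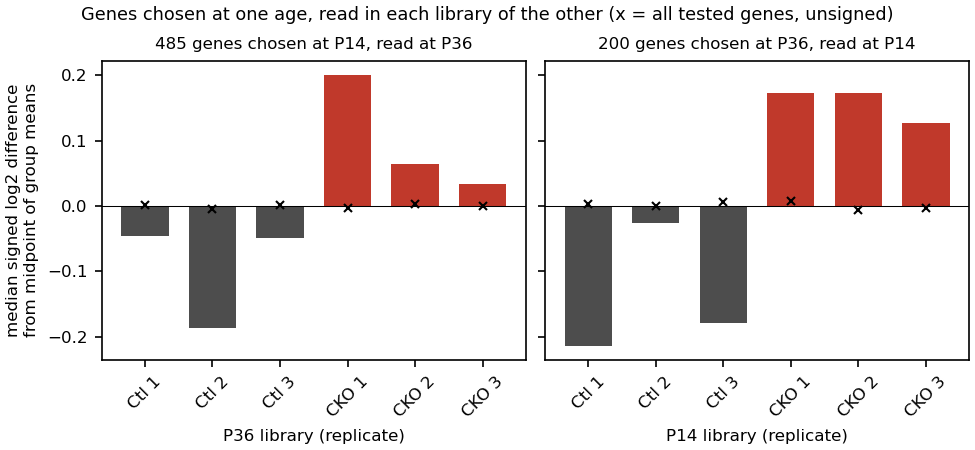
Median signed log2 difference from the midpoint of the group means (y axis) in each library of the age not used to choose the genes, for 485 genes chosen at P14 and read at P36 (left) and 200 chosen at P36 and read at P14 (right); crosses are the median over all tested genes, unsigned. All CKO bars are above 0 and all Control bars below it, with CKO replicate 3 at P36 (0.03) and Control replicate 2 at P14 (-0.03) nearest to 0. Each library enters its own midpoint, so the bars of an age are not separate checks.

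The called genes lay on all autosomes, with 2.63% (chromosome 8) to 6.49% (chromosome 1) of the tested genes called, beside 4.49% over all. In windows of 5 Mb (mm10) the most calls were 13 of 79 genes at chromosome 1, 170000001 to 175000000, 12 of them higher, among them the Fc receptor genes Fcgr2b, Fcgr3 and Fcer1g. A window on chromosome 6, 120000001 to 125000000, had 10 of 60, with the complement genes C1s1, C1ra and C3ar1, and that of the MHC on chromosome 17, 30000001 to 35000000, had 9 of 124, all higher. These windows hold families of neighbouring immune genes. Among genes that start within 5 Mb of the start of Tbx4 2 of 118 tested were called (1.69%), Ccl11 and Ppm1e. Within 1 Mb 0 of 22 were called in edgeR, with 5 at an unadjusted p under 0.05 and 3 called by DESeq2. Within 10 Mb 8 of 245 were called (3.27%), all higher.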

How the data were processed

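Reads were aligned with STAR to mm10 and counted per gene with featureCounts, after FastQC, per the submitters' processing notes, which also name edgeR. No version of these tools and no strand setting for counting is stated in the sources used here. As the authors deposited it, the count table holds raw counts per gene for each library. Per the labels, 100 ng of total RNA (miRNeasy) went into each KAPA RNA HyperPrep library. A deposited table of log2 values was not used.

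A model of 4 groups was fitted with the quasi-likelihood test of edgeR 4.0.16 (R 4.3.3), with TMM scaling and robust dispersion, on genes kept by filterByExpr at 10 counts in a group's number of libraries and 15 in total. Each adjusted p of the main fit is Benjamini-Hochberg over 15923 tested genes. Other fits, such as those of summed libraries or of 1 age, were adjusted over the genes that each kept, and DESeq2 used its own adjustment. Genes were called under 0.05, and errors are standard errors of the log2 fold change. CPM are TMM-scaled. DESeq2 1.42.0 and limma 3.58.1 (voom) were alternatives, as were other filters and scalings, each library left out, libraries of a shared number summed (10 remain), a term for sex read from Y-linked genes and Xist, and a replicate block. The procedure was tested on simulated data.

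The largest changes were the 12 rises and 12 falls given by the rule in the text, without predicted gene models, and up to 4 called members with the smallest p were named from each list. A few of these genes are not reported here. Other genes named beside a count, such as Eln, Mfap4, A2m and Col1a1, were chosen after their values were seen. The members and the 58 gene lists were chosen with earlier results of these data known. Exons of Syt6, Mmp19, Slc7a10, Abcc9, Bmp4 and Loxl2 overlap another gene model in the table. Coordinates are those of the deposited table (mm10), and all 123 genes named by the rule matched GENCODE M21 names and positions.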

Additional observations from a re-analysis of the deposited data

Results flagged for a closer look

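In 9 of the genes named by rule the genotype effect differed between the ages by the interaction test in edgeR (adjusted p under 0.05), so their average joins unequal effects; differences are given as P36 minus P14 on the log2 scale. For the matrix genes the effect was larger at P36. The difference was 1.16 for Adamts12, a metalloprotease (0.44 at P14, 1.60 at P36, adjusted p = 0.0459), and 1.13 for Fbln2, a fibulin (-0.15 and 0.99, adjusted p = 0.0237). For immune genes it was larger at P14. The difference was -1.70 for Xcr1 (2.54 and 0.84, adjusted p = 0.0322), -1.66 for Clec9a (2.35 and 0.69, adjusted p = 0.0371) and -1.25 for Ccr2 (1.63 and 0.38, adjusted p = 0.0122). It was -1.16 for H2-Aa (1.32 and 0.17, adjusted p = 0.0436), -1.25 for H2-Ab1 (1.43 and 0.18, adjusted p = 0.048), -0.96 for the dendritic integrin gene Itgax (adjusted p = 0.0375) and -1.10 for the lectin gene Mgl2 (1.13 and 0.03, adjusted p = 0.0324). The part of cell numbers in these differences was not tested.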

How the results depend on the processing

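None of the 123 genes named by the rule changed sign under any setting run; Tbx4, which was not called, turned from 0.03 to -0.08 with a term for sex. With libraries of a shared number summed, the 492 rises and 198 falls of the average were 161 and 67, those separated at both ages (299 and 109) were 142 and 52, and those called at both ages (68 and 19) were 13 and 2. With a term for sex the rises were 306, the separated genes 185 and 68, and the genes called at both ages 13 and 8. With both together they were 77 and 32, 69 and 24, and 0 and 1 in edgeR, where 185 genes were higher at an unadjusted p under 0.05 at each age. DESeq2 called 118 higher and 36 lower at both ages. Over the 12 fits that left out 1 library the average had 268 to 582 rises and 101 to 238 falls, with 201 to 383 and 70 to 154 separated and 28 to 86 and 8 to 28 called at both ages. These fits hold fewer libraries. With the replicate block the average had 450 rises and 192 falls. Libraries of different groups with the same replicate number correlated at -0.28 to 0.588, and those with different replicate numbers at -0.646 to 0.557. These ranges overlapped, so they do not settle whether replicate numbers paired libraries across groups. That question is apart from the numbers shared in library names. Of the 690 calls 684 were called by DESeq2, 605 by limma-voom, 634 with no filter and 668 with library totals, all with the same sign. Of the 123 named genes 95 were called with the sex term, 75 with summed libraries and 43 with both. The medians of the 58 lists kept their sign in 57 with summed libraries and in 49 with the sex term. With 3 libraries a group, 4 of them in pairs of a shared number and sex partly tied to genotype at P36, small changes could not be told from library spread.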
